A study of Mus musculus with 8 samples.

Results

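A set of 10 genes for secreted growth factors of tissue repair and blood vessel growth (Vegfa, Pdgfb, Areg, Ereg, Hbegf, Tgfa, Osm, Lif, Hgf and Igf1) were followed in eosinophils sorted from the bone marrow and the small intestine of mice. They were taken by their symbols, and all 10 were among the 38392 genes measured. The study sequenced RNA from 4 libraries per tissue to ask how eosinophils of the intestine differ from those at the site of their production. All mice were female, of the C57/BL6 strain and wildtype, with no transgene, no gene deletion and no treatment in either group, and the labels give no age. The gate was CD11b+MHC-II-SiglecF+SSChi in the intestine and CD11b+Ly6G-Ly6C-SiglecF+SSChi in the bone marrow. Intestinal cells were isolated by stripping with EDTA, warm digestion with collagenase VIII and DNase and selection on anti-CD11b beads, whereas bone marrow was flushed and sorted without these steps. Tissue and handling therefore cannot be told apart in any difference given here.

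The epidermal growth factor (EGF) family, to which amphiregulin (Areg), epiregulin (Ereg), heparin-binding EGF-like growth factor (Hbegf) and transforming growth factor alpha (Tgfa) belong, is made as membrane proteins that proteases release, and signals through receptors of the ErbB group. Vascular endothelial growth factor A (Vegfa) acts on endothelium, and the platelet-derived growth factor B chain (Pdgfb) on pericytes and fibroblasts. Oncostatin M (Osm) and leukaemia inhibitory factor (Lif) are cytokines of the interleukin 6 family that share the receptor chain gp130. Hepatocyte growth factor (Hgf) is secreted as an inactive precursor and binds the receptor Met, and insulin-like growth factor 1 (Igf1) is held by binding proteins and acts through Igf1r. In the gut these factors are known for their part in the renewal and healing of the epithelium.

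Sequencing depth, as reads in genes, ran from 11508002 to 21289164 per library. Read counts were recovered from the deposited values, and scaled by size factor they are called normalised counts. A difference is the mean of the small intestine less that of the bone marrow, on the log2-like scale of the deposit, with the standard error (SE) of limma, and is called when the limma p-value, adjusted over all 38392 genes, is under 0.05. By this rule 12.9% of all genes were lower in the small intestine. The study used 4 mice per tissue, but the labels do not tie a library to a mouse, so that the p-values measure only the spread between these libraries. In sorted bulk samples, fewer cells of a type and less RNA per cell cannot be told apart.

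The sorted cells were checked against marker genes. The eosinophil surface receptor genes Ccr3 and Il5ra were at mean normalised counts of 70.9 and 11.0 in the bone marrow and 16351 and 1107 in the small intestine, whereas the granule protein genes Prg2 and Epx were at 1831 and 349.9 in the bone marrow and 147 and 20.6 in the small intestine. Summed over 10 genes of neutrophils and their precursors, led by Mpo, bone marrow libraries held normalised counts from 311313 to 398062 and small intestine libraries from 920 to 1312. In the bone marrow these genes therefore outweighed the 11 eosinophil genes, which summed to between 2709 and 4746. The share of each growth factor value below that came from cells other than eosinophils was not tested.

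Of the 10 growth factor genes, 7 were higher in the small intestine, none was lower and 3 were not called (Ereg, Pdgfb and Igf1), beside 22.0% of all genes called higher and 34.9% called in either direction. In the same 7 genes every small intestine library lay above every bone marrow library, a separation found in 20.3% of all genes (34.3% in either direction). The median difference of the 10 genes was 3.44, beside 0.37 for all genes tested. Of the 10, 8 had a mean of at least 10 reads over the 8 libraries, and Ereg and Pdgfb lay under that level. Among the 16215 genes with at least that mean, fitted alone, 6362 were higher and 5462 lower, with a median difference of 0.12. A larger share of these genes was thus called than of all genes, and 7 of the 8 growth factor genes among them were called.

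**Figure D1:**
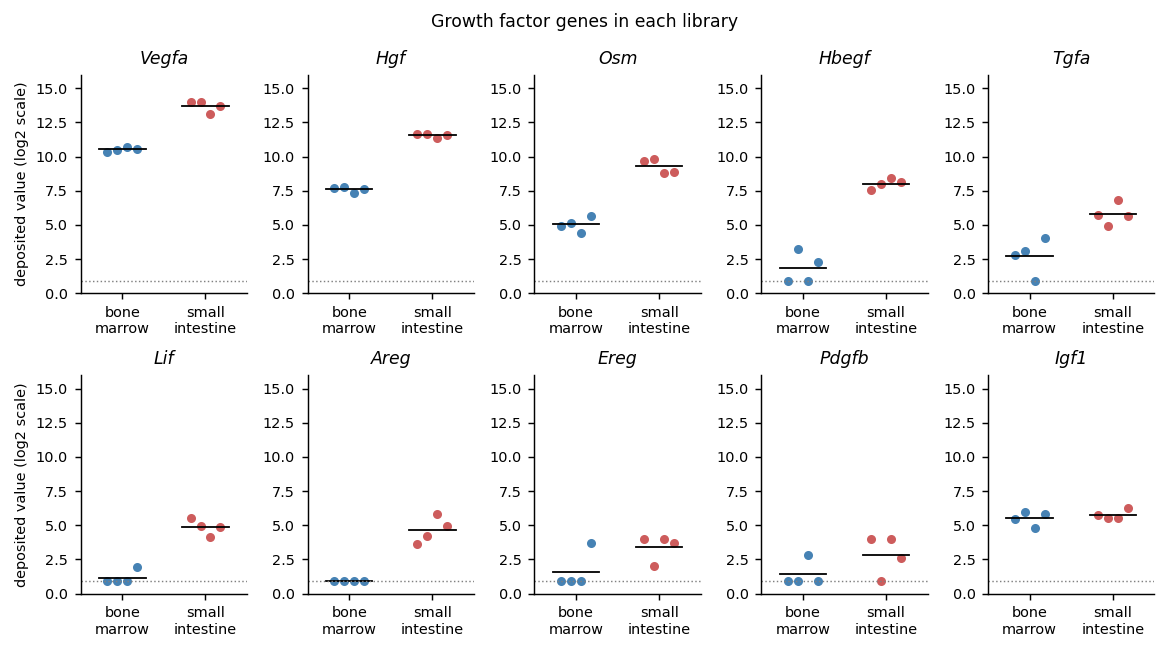
Deposited values (log2 scale) of the 10 growth factor genes in the 4 bone marrow (blue) and 4 small intestine (red) libraries, with 1 panel per gene. Points are libraries, black lines are means, and the dotted line is the deposited value of a gene without reads, 0.93. The tissues do not overlap for Vegfa, Hgf, Osm, Hbegf, Tgfa, Lif and Areg, and they overlap for Ereg, Pdgfb and Igf1.

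Vegfa, the main driver of vessel sprouting (chr17:46016993-46032369, minus strand, GRCm38), was already well expressed in the bone marrow and rose further. Its normalised counts were 1312, 1438, 1656 and 1497 in BM_1, BM_3, BM_4 and BM_5, and 8897, 13620, 16518 and 16144 in SI_6, SI_7, SI_10 and SI_11. The bone marrow libraries were close together, and the lowest intestinal library, SI_6, was still above all of them. The mean rose 9.35-fold, from 1476 ± 143 to 13795 ± 3509 (SD, n = 4 each), with a difference of 3.19 ± 0.24 (SE, limma adjusted p = 2.46e-05). Per kilobase of exon, Vegfa had the highest level of the 10 genes in both tissues, at normalised counts of 344 ± 33.4 and 3219 ± 819 per kilobase (SD, n = 4 each), and ranked 134 among the 38392 genes in the small intestine.

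To place beside these values the sequence next to each start site, the 250 bases upstream of the RefSeq start were read for the 6 genes with an entry (Vegfa, Areg, Tgfa, Hgf, Igf1 and Lif; GRCm38.p6). Ereg, Hbegf, Osm and Pdgfb had no entry. Both strands were searched for the TATA box (TATAAA, in 12.4% of 32851 mouse promoter windows of this length), the cyclic AMP response element (TGACGTCA, 1.55%), the AP-1 site bound by Fos and Jun (TGANTCA, 6.75%), the Sp1 site (GGGCGG, 32.7%), the hypoxia-inducible factor core (ACGTG, 16.6%), the aryl hydrocarbon receptor core (GCGTG, 28.2%) and a STAT site (TTCNNNGAA, 7.02%). No matches in the 6 windows overlapped one another, and a match is a run of letters and not evidence of binding. The Vegfa window is shown as that of the most abundant of the 10 transcripts. It lies at chr17:46032378-46032627 on the minus strand and is printed 5′ to 3′ with its 2 Sp1 letters in capitals, at 72 to 67 and 62 to 57 bases before the start.
Vegfa: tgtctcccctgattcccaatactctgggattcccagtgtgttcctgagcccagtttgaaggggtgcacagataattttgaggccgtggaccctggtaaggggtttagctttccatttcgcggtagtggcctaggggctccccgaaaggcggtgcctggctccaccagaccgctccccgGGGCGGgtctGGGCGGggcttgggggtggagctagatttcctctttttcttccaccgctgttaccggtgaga
The window had 59.2% G and C, beside a median of 52.4% over all windows, and held none of the other 6 motifs, so neither ACGTG nor GCGTG. Bases further upstream were not read.

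Pdgfb (chr15:79995874-80014977, minus strand), the second gene of vessel growth among the 10, stayed near the limit of detection. It had 4 reads in BM_4 and none in the other bone marrow libraries, and 11, 2, 11 and 0 reads in SI_6, SI_7, SI_10 and SI_11. The ranges overlapped, since SI_11 held no read. The difference was 1.45 ± 0.75 (SE, 95% interval from -0.26 to 3.16, limma adjusted p = 0.181), and no difference was detectable at this depth. Without SI_11 the difference was 2.10 and was called (adjusted p = 0.0366), and over all alternatives the adjusted p-value ran from 0.0366 to 0.532.

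Of the 4 EGF family genes, 3 rose, and all 3 started from few or no reads. Hbegf, the ligand with the highest level of the family in the small intestine, had 0, 9, 0 and 2 reads in BM_1, BM_3, BM_4 and BM_5. In SI_6, SI_7, SI_10 and SI_11 its normalised counts were 350.4, 276, 183 and 250.1. The groups were far apart, and the mean rose 137-fold, from 1.93 ± 2.77 to 265 ± 69.3 (SD, n = 4 each), with a difference of 6.19 ± 0.53 (SE, limma adjusted p = 4.35e-05), the highest of the 10 genes. The bone marrow mean rests on 11 reads, and the counting interval of the ratio ran from 66.3 to 240-fold. Without BM_3 the ratio was 427.

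Areg (chr5:91139599-91148432, plus strand), which type 2 immune cells are known to release during repair, had no read in any bone marrow library. Its reads in SI_6, SI_7, SI_10 and SI_11 were 49, 20, 8 and 13, or normalised counts of 53.5, 27.7, 8.75 and 15.4. Transcripts were thus present in every intestinal library, with the lowest value in SI_10 and the highest in SI_6. Against the level that 3 reads over the bone marrow libraries would give, Areg was 43.6-fold higher in the small intestine. The counting interval of the ratio, with no read in the bone marrow, began at 34.9-fold. The difference of Areg was 3.74 ± 0.43 (SE, limma adjusted p = 0.000248). Its mean in the small intestine, on which the 43.6-fold rests, was 26.3 ± 19.7 (SD, n = 4), or 21.7 ± 16.2 per kilobase. Without SI_6 the mean was 17.3 ± 9.63 (SD, n = 3).
The Areg window (chr5:91139349-91139598, plus strand) is shown because the gene went from no read in the bone marrow to every intestinal library, and capitals mark, in order, the cyclic AMP response element at 61 to 54, the Sp1 letters at 52 to 47 and the TATA box at 31 to 26 bases before the start.
Areg: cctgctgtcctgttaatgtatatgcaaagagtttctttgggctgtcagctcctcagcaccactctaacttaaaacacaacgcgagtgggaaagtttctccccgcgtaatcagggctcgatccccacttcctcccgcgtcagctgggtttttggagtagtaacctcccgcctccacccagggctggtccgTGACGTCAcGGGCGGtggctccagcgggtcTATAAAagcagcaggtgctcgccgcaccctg
Among the 6 genes with a window, Areg alone held the cyclic AMP response element or the TATA box.

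Tgfa (chr6:86195223-86275719, plus strand), a ligand of the EGF receptor made by many epithelia, had 5, 8, 0 and 14 reads in BM_1, BM_3, BM_4 and BM_5. Its normalised counts were 112, 47.2, 49.2 and 27.3 in SI_6, SI_7, SI_10 and SI_11, beside 3.83, 5.22, 0 and 13.0 in the bone marrow. The groups did not overlap, although SI_11 and BM_5 were close. The mean rose 10.7-fold, from 5.52 ± 5.46 to 59.0 ± 37.0 (SD, n = 4 each), with a difference of 3.07 ± 0.67 (SE, limma adjusted p = 0.00686). Without BM_5 the ratio was 19.6. Its window, not printed here, held the Sp1 letters at 126 to 121 and, on the opposite strand, at 15 to 10 bases before the start, and the aryl hydrocarbon receptor core at 222 to 218.

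Ereg (chr5:91074622-91093646, plus strand), which neighbours Areg on chromosome 5, did not pass the test. It had 10 reads in BM_5 and none in the other bone marrow libraries, and 11, 7, 11 and 1 reads in SI_6, SI_7, SI_10 and SI_11. BM_5 lay above SI_11, so that the ranges overlapped. The difference was 1.81 ± 0.72 (SE, 95% interval from 0.16 to 3.45, limma adjusted p = 0.0873). Without BM_5 it was 2.49 and was called (adjusted p = 0.00905), as it was by voom on the recovered reads (2.90, adjusted p = 0.0465), and over all alternatives the adjusted p-value ran from 0.00905 to 0.244.

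Of the other 7 ligands of the EGF family, none was higher, 3 were lower and 4 were not called, with a median difference of -0.06. Over all genes 22.0% were higher and 12.9% lower. Of the 7, 4 had a mean of at least 10 reads, and of the 16215 genes at that level 5462 were lower. Without BM_5, 2 of the 7 ligands were higher, and with voom 1 was. All 3 that fell were neuregulins, ligands of the receptors ErbB3 and ErbB4. Nrg4 fell from a mean of 409 ± 33.0 to 66.8 ± 8.12 (SD, n = 4 each; difference -2.55 ± 0.18, SE, limma adjusted p = 1.75e-05). Nrg1 fell from 149 ± 16.3 to 19.5 ± 12.2 (difference -2.92 ± 0.42, adjusted p = 0.000797), and Nrg2 from 60.7 ± 21.1 to 4.37 ± 4.70 (difference -3.42 ± 0.57, adjusted p = 0.00172). The gene of EGF itself was at 35.7 ± 15.3 and 33.5 ± 11.6, a difference of -0.06 ± 0.37 (adjusted p = 0.925).

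As a description with no test, the reads of all 11 family ligands were set per kilobase of exon and expressed as shares of their sum in each library. In the bone marrow, Nrg4 made up 62.4% ± 4.91, Nrg2 17.7% ± 4.75 and Nrg1 13.3% ± 0.575 of the family, while Hbegf made up 0.370% and Tgfa 0.794% (mean, SD where given, n = 4). In the small intestine, Hbegf made up 50.1% ± 6.06, Areg 17.7% ± 8.03, Nrg4 10.6% ± 3.52 and Tgfa 7.84% ± 2.83. Without division by exon length the order behind Hbegf (51.8%) changed, with Nrg4 at 13.6%, Tgfa at 11.0%, Egf at 6.75% and Areg at 4.73%. The sum per kilobase overlapped between the tissues, from 101 to 118 normalised counts in the bone marrow and from 80.7 to 158 in the small intestine. It was 158, 117, 80.7 and 87.7 in SI_6, SI_7, SI_10 and SI_11. The leading ligand thus changed from a neuregulin to Hbegf, with the family's sum overlapping between tissues when taken per kilobase. The shares rest on 3358 reads in the bone marrow and 1733 in the small intestine.

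**Figure D2:**
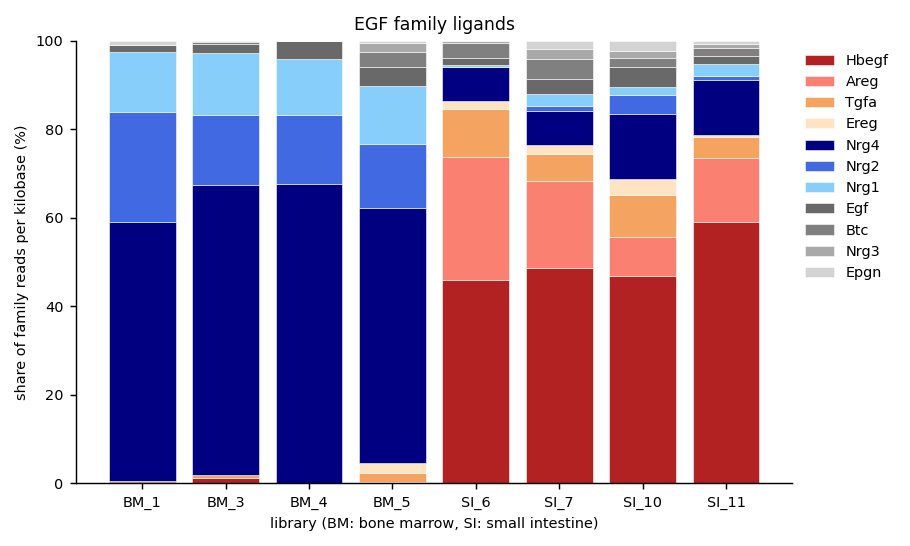
Share (%) of each of the 11 EGF family ligands in the family's reads per kilobase of exon, as 1 stacked bar per library. Nrg4 (dark blue) makes up between 57.8% and 67.6% of the bone marrow bars, and Hbegf (dark red) between 45.8% and 59.0% of the small intestine bars.

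Both interleukin 6 family members among the 10 rose. Osm (chr11:4236420-4241026, plus strand), a cytokine that acts on stromal cells and epithelium, had normalised counts of 26.8, 32.0, 17.2 and 47.4 in BM_1, BM_3, BM_4 and BM_5. In SI_6, SI_7, SI_10 and SI_11 they were 452, 465, 811 and 899.6. Even the lowest intestinal library stood well above BM_5. The mean rose 21.3-fold, from 30.9 ± 12.6 to 657 ± 232 (SD, n = 4 each), with a difference of 4.26 ± 0.35 (SE, limma adjusted p = 3.85e-05). Per kilobase, its level in the small intestine was 289 ± 102, the third of the 10 genes.

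Lif (chr11:4257557-4272514, plus strand), which lies close to Osm on chromosome 11, had a single read in the bone marrow, in BM_5. Its reads in SI_6, SI_7, SI_10 and SI_11 were 13, 19, 38 and 23, or normalised counts of 14.2, 26.3, 41.6 and 27.3. The gene was therefore nearly silent in the bone marrow libraries and low but present in each intestinal library. The difference was 3.70 ± 0.35 (SE, limma adjusted p = 8.19e-05), and the ratio of the means, 118, has a counting interval from 23.8 to 5423 because of the single read.
The Lif window (chr11:4257318-4257567, plus strand) is shown as that of a called gene with an AP-1 site, which stands in capitals at 228 to 222 bases before the start, followed by the aryl hydrocarbon receptor core on the opposite strand at 204 to 200.
Lif: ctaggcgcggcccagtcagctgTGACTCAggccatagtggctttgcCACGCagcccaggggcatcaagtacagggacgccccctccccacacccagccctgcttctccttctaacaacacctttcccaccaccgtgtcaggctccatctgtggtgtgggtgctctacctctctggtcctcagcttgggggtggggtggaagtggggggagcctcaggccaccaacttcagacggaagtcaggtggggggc

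Of the other 6 cytokines of the interleukin 6 family, 3 were higher, none was lower and 3 were not called, with a median difference of 2.24. With centring on the median of all genes 2 were lower, and by quantile normalisation 1 was. Il6, a cytokine of inflammation and of epithelial repair, rose from 1.53 ± 1.04 to 1007 ± 576 (SD, n = 4 each; difference 7.78 ± 0.51, SE, limma adjusted p = 1.13e-05). Clcf1, a neurotrophic cytokine of the family, rose from 15.0 ± 8.50 to 1001 ± 202 (difference 5.88 ± 0.40, adjusted p = 1.35e-05). Il27, which encodes the p28 subunit of interleukin 27, rose from 22.9 ± 6.86 to 355.9 ± 117 (difference 3.73 ± 0.32, adjusted p = 4.25e-05). Among the 10 growth factor genes and their families, the difference of Il6 was above those of Osm and Lif, with the intervals of Il6 and Osm not overlapping.

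Hgf (chr5:16553495-16620152, plus strand), a factor for epithelial growth and migration, had the smallest SE of the 10 genes. Its normalised counts were 201, 215, 161 and 195 in BM_1, BM_3, BM_4 and BM_5, and 2608, 3089.8, 3250.1 and 3242 in SI_6, SI_7, SI_10 and SI_11. Both groups were narrow and far apart. The mean rose 15.8-fold, from 193 ± 23.1 to 3047 ± 302 (SD, n = 4 each), with a difference of 3.96 ± 0.19 (SE, limma adjusted p = 2.24e-06). At 424 ± 42.1 per kilobase, Hgf had the second highest level of the 10 genes in the small intestine. Its window, not printed here, held 1 match, the aryl hydrocarbon receptor core on the opposite strand at 248 to 244 bases before the start.

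Igf1 (chr10:87858265-87937042, plus strand), a survival and growth factor, had a mean of at least 10 reads but no called difference. Its normalised counts were 41.4, 58.0, 24.9 and 52.1 in BM_1, BM_3, BM_4 and BM_5, and 42.6, 74.9, 50.3 and 42.7 in SI_6, SI_7, SI_10 and SI_11. The libraries of both tissues covered much of the same range. The means were 44.1 ± 14.5 and 52.6 ± 15.3 (SD, n = 4 each), and the difference of 0.26 ± 0.30 had a 95% interval from -0.43 to 0.95 (limma adjusted p = 0.518), which turned to -0.64 when values were centred on the median of all genes.
The Igf1 window (chr10:87860861-87861110, plus strand), which precedes a RefSeq start inside the annotated gene, is shown beside that of Lif. It also matches the loose AP-1 letters, in capitals at 37 to 31 bases before the start, after the aryl hydrocarbon receptor core at 196 to 192. Its match is TGAATCA, whereas that of Lif is TGACTCA.
Igf1: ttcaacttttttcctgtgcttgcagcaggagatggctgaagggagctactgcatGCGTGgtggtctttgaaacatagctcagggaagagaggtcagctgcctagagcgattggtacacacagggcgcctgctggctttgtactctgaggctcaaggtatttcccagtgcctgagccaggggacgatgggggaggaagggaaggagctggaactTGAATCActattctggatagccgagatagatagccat
The loose AP-1 letters thus occurred in 1 gene that rose, as TGACTCA, and in 1 that was not called, as TGAATCA, and in 2 of the 6 windows in all. The STAT site and ACGTG, the only form searched as a hypoxia-inducible factor core, were in none of the 6. GCGTG, counted as the aryl hydrocarbon receptor core, was in 4 of the 6.

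Among the other 9 ligands of the insulin-like, hepatocyte and fibroblast growth factor families, 3 were higher, 1 was lower and 5 were not called (median difference 1.23). The balance depended on the scaling, with 1 higher and 3 lower when values were centred on the median of all genes, 2 higher and 2 lower by quantile normalisation and 5 higher with voom. Igf2, the fetal relative of Igf1, rose from 2.22 ± 1.91 to 103 ± 25.6 (SD, n = 4 each; difference 4.54 ± 0.43, SE, limma adjusted p = 7.82e-05), and Fgf2 fell from 68.3 ± 7.65 to 34.7 ± 7.48 (difference -0.92 ± 0.21, adjusted p = 0.00889). Mst1, which encodes the relative of Hgf called macrophage-stimulating protein, was at 31.6 ± 9.66 and 21.6 ± 6.19 and was not called (difference -0.48 ± 0.29, adjusted p = 0.232), but was lower with centring on the median of all genes (-1.38, adjusted p = 0.0125) and by quantile normalisation (-1.23, adjusted p = 0.0108). Of 9 other ligands of vessel growth, 4 were higher, 2 were lower and 3 were not called (median difference 0.998), with 2 rather than 4 higher under both of these scalings and with the filter at a mean of 10 reads. Pdgfa, the A chain of platelet-derived growth factor, rose from 3.96 ± 4.13 to 44.9 ± 34.7 (28.6 ± 14.3 without SI_6; difference 2.73 ± 0.59, adjusted p = 0.00674), and Angpt1, which stabilises vessels through the receptor Tek, from 28.6 ± 2.94 to 59.6 ± 12.0 (difference 0.96 ± 0.20, adjusted p = 0.0057). Vegfb fell from 90.4 ± 18.9 to 36.1 ± 10.4 (difference -1.26 ± 0.26, adjusted p = 0.00504) and Angpt2, which loosens vessels, from 309 ± 53.3 to 127 ± 14.6 (difference -1.25 ± 0.20, adjusted p = 0.00154). The call of Pdgfa was lost by quantile normalisation (1.86, adjusted p = 0.0797), and that of Angpt1 by it (0.34) and by centring on the median of all genes (0.0589, adjusted p = 0.933). Vegfa and Vegfb moved in opposite directions in every alternative.

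**Figure D3:**
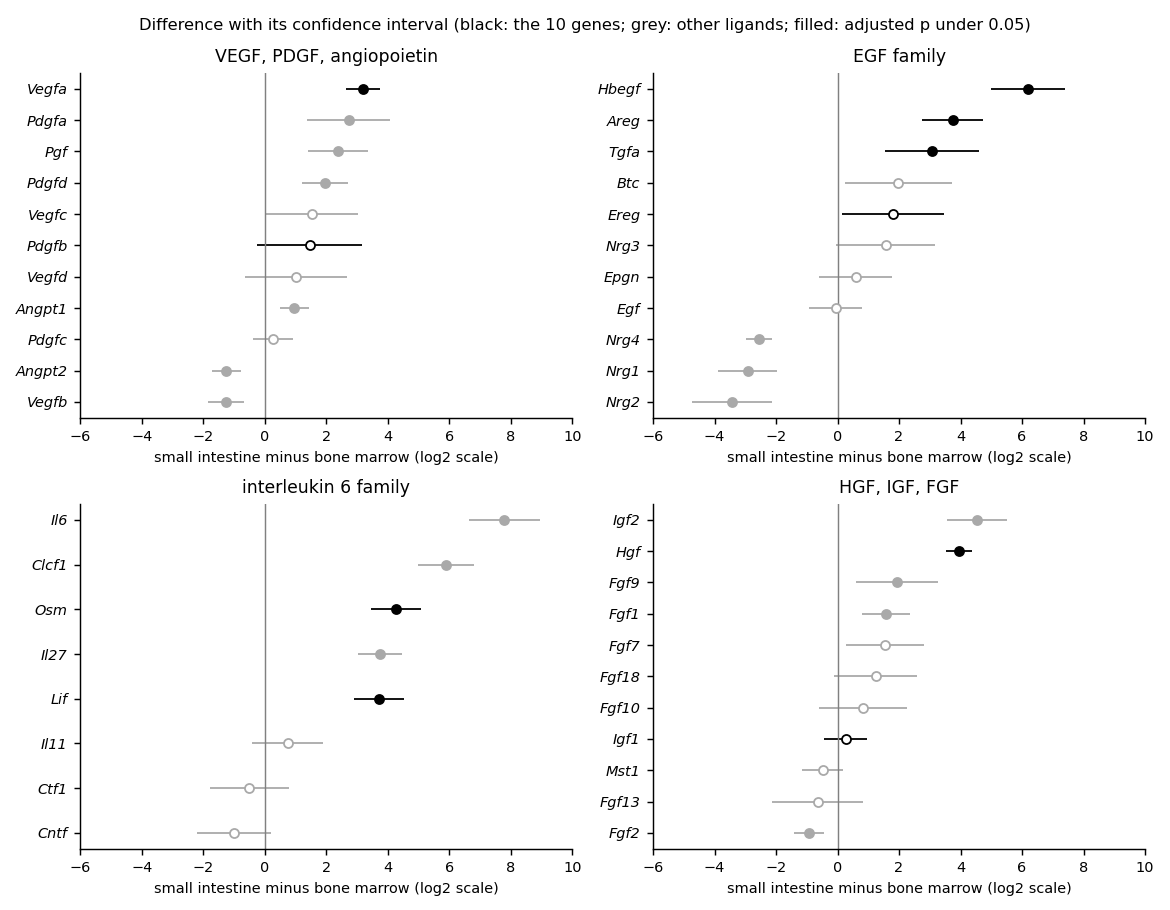
Difference between small intestine and bone marrow (log2 scale, limma, with 95% intervals) for the 10 growth factor genes (black) and the other ligands of their families (grey). Filled points have an adjusted p under 0.05. Hbegf, Areg and Tgfa lie on the right and Nrg1, Nrg2 and Nrg4 on the left of the line at 0.

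The receptors for these factors were counted in the same libraries. Of 21 receptor genes, 13 were higher, 3 were lower and 5 were not called (median difference 1.39). The chains bound by Osm and Lif were all higher: Lifr rose from 17.8 ± 7.31 to 239.5 ± 9.54 (SD, n = 4 each; difference 3.57 ± 0.25, SE, limma adjusted p = 1.76e-05). Il6st, which encodes gp130, rose from 116 ± 14.1 to 324 ± 124 (difference 1.39 ± 0.28, adjusted p = 0.00471), and Osmr from 9.91 ± 13.2 to 99.2 ± 25.1 (difference 3.96 ± 0.91, adjusted p = 0.00903). Of these 3, Lifr had the smallest SD in the small intestine. The receptor of Hgf, Met, was at 97.3 ± 15.6 and 211 ± 116 and just missed the threshold (difference 0.97 ± 0.34, adjusted p = 0.0544).

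Receptors of Igf1 were abundant and near level in both tissues. Igf1r was at 2182 ± 174 and 2403 ± 395 (SD, n = 4 each; difference 0.13 ± 0.20, SE, limma adjusted p = 0.639), and the insulin receptor gene Insr at 2185 ± 137 and 2331 ± 74.9 (difference 0.09 ± 0.16, 95% interval from -0.28 to 0.47). Both differences turned negative, without a call, when values were centred on the median of all genes or quantile normalised. Igf2r, which clears insulin-like growth factor 2, fell from 1167 ± 180 to 631 ± 114 (difference -0.89 ± 0.22, adjusted p = 0.012). Of the 4 receptor genes of the EGF family, Egfr, Erbb2 and Erbb3 rose, and Erbb4 was at 1.71 ± 2.06 and 7.77 ± 9.03 and was not called (adjusted p = 0.208). Erbb2 rose from 5.92 ± 5.45 to 219 ± 195 (difference 4.41 ± 0.63, adjusted p = 0.000772), with an intestinal mean of 126 ± 64.0 (SD) without SI_6. Erbb2 was at normalised counts of 501, 198, 77.7 and 101 in SI_6, SI_7, SI_10 and SI_11. Erbb2, Egfr, Il6st and Met stood in the order of the epithelial sum given below, and Areg, Hbegf and Tgfa were also highest in SI_6. Egfr and Erbb3 were at 259 and 943 in SI_6, and their intestinal means without it were 77.2 ± 32.6 and 220 ± 119 (SD). Erbb4 was highest in SI_10. The part of epithelial transcripts in these receptor values was not tested.

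Genes linked to the release or activation of the ligands, not all of them proteases, counted 6 higher, 1 lower and 3 not called of 10. Over all genes 22.0% were higher and 12.9% lower. The median difference of the 10 was 1.96, and 2 were lower when values were centred on the median of all genes. Adam17, the main sheddase of Areg, Hbegf and Tgfa, was at 1104 ± 111 and 1101 ± 56.8 (SD, n = 4 each), and its difference was within 0.40 of 0 in either direction by the 95% interval of limma (adjusted p = 0.999). The related protease gene Adam10 fell from 1597 ± 123 to 852 ± 104 (difference -0.91 ± 0.18, SE, limma adjusted p = 0.00455), and Furin, a convertase of precursor proteins, rose from 559.6 ± 27.7 to 2132 ± 442 (difference 1.90 ± 0.21, adjusted p = 0.000188), a call lost when values were centred on the median of all genes (0.999, adjusted p = 0.0794). Hpn, which encodes hepsin, a protease that can activate the Hgf precursor, rose from 2.24 ± 1.77 to 537 ± 154 (difference 6.72 ± 0.35, adjusted p = 3.74e-06). Of these 4 protease genes, only Adam17 was not called.

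Binding proteins and secreted inhibitors counted 6 higher, 1 lower and 4 not called of 11 (median difference 1.71), and 2 lower when centred in the same way. Igfbp4, which holds insulin-like growth factors, fell from 3024 ± 307 to 117 ± 32.2 (SD, n = 4 each; difference -4.67 ± 0.23, SE, limma adjusted p = 2.53e-06). Spint1, an inhibitor of the proteases that activate Hgf, had 1 read in the bone marrow and a mean of 224 ± 166 in the small intestine (difference 6.39 ± 0.49, adjusted p = 2.45e-05). Its relative Spint2 was at 384 ± 61.0 and 361 ± 306 and was not called (difference -0.41 ± 0.50, adjusted p = 0.535). Both inhibitors were highest in SI_6, the library with the highest epithelial sum given below, and without it their intestinal means were 144 ± 60.4 for Spint1 and 211 ± 80.7 for Spint2 (SD, n = 3). The difference of Spint1 was then 5.96 and still called, that of Spint2 was -0.91 (limma adjusted p = 0.0546), and Spint2 was lower with centring on the median of all genes (-1.31, adjusted p = 0.0217). Intracellular feedback inhibitors counted 6 higher, none lower and 5 not called of 11 (median difference 2.02), with 1 or 2 lower under several alternatives, among them other scalings, voom and leaving out BM_5, SI_6 or SI_10. Socs2 and Cish, inhibitors of cytokine receptor signalling, rose from 6.62 ± 5.86 to 3162 ± 848 (difference 8.45 ± 0.42, adjusted p = 2.84e-06) and from 14.0 ± 5.33 to 1449 ± 374 (difference 6.38 ± 0.31, adjusted p = 2.49e-06). Spred2, an inhibitor of the Ras pathway, was at 529 ± 24.2 and 524 ± 71.7 (difference -0.02 ± 0.18, adjusted p = 0.936).

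**Figure D4:**
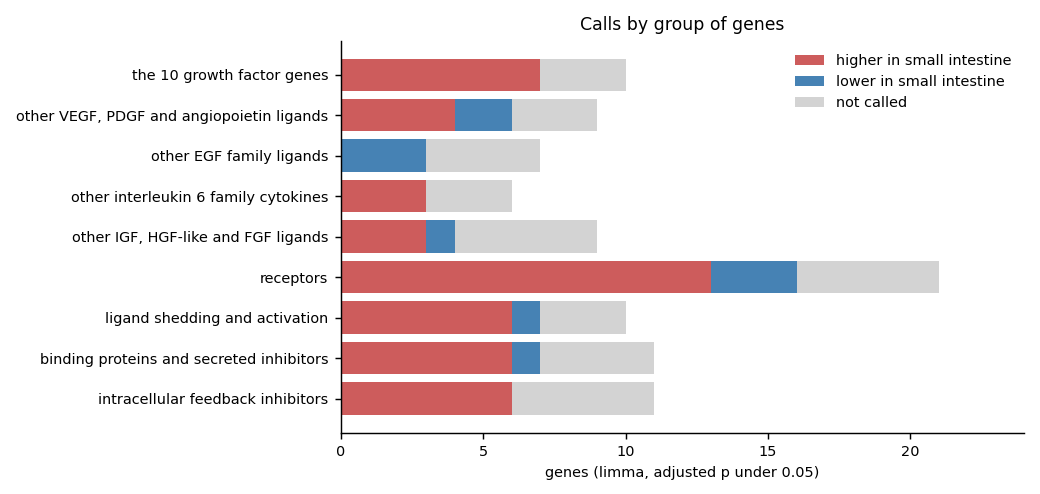
Number of genes called higher (red), lower (blue) or not called (grey) in the small intestine by limma at an adjusted p under 0.05, for the 10 growth factor genes and 8 groups of related genes. The other EGF family ligands are the group with no gene called higher, although 2 of them were without BM_5. Over all genes, 22.0% were higher and 12.9% lower.

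The 4 small intestine libraries differed in the summed counts of marker genes of other cells, and which cells these transcripts came from was not tested. Summed over 12 epithelial genes, all of which were higher in the small intestine, normalised counts were 39321 in SI_6, 17691 in SI_7, 5736 in SI_10 and 6433 in SI_11, and between 197 and 226 in the bone marrow. The 10 fibroblast genes, 8 of them higher, summed to 895 in SI_6, 606 in SI_7, 318 in SI_10 and 215 in SI_11, and to between 41.1 and 103 in the bone marrow. Areg, Hbegf and Tgfa each had their highest value in SI_6, and Areg and Hbegf stood in the same order over the 4 libraries as the epithelial sum. The plasma and B cell sum also stood in this order, at 27729, 21158, 13163 and 5491 in SI_6, SI_7, SI_11 and SI_10. Vegfa, Osm, Hgf and Lif each had their lowest value in SI_6. Without SI_6 the differences were 3.35 for Areg, 6.04 for Hbegf, 2.72 for Tgfa, 3.38 for Vegfa, 4.42 for Osm, 4.03 for Hgf and 3.94 for Lif, and each was still called. The part of the epithelial, fibroblast, plasma and B cell transcripts in these values was not tested.

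**Figure D5:**
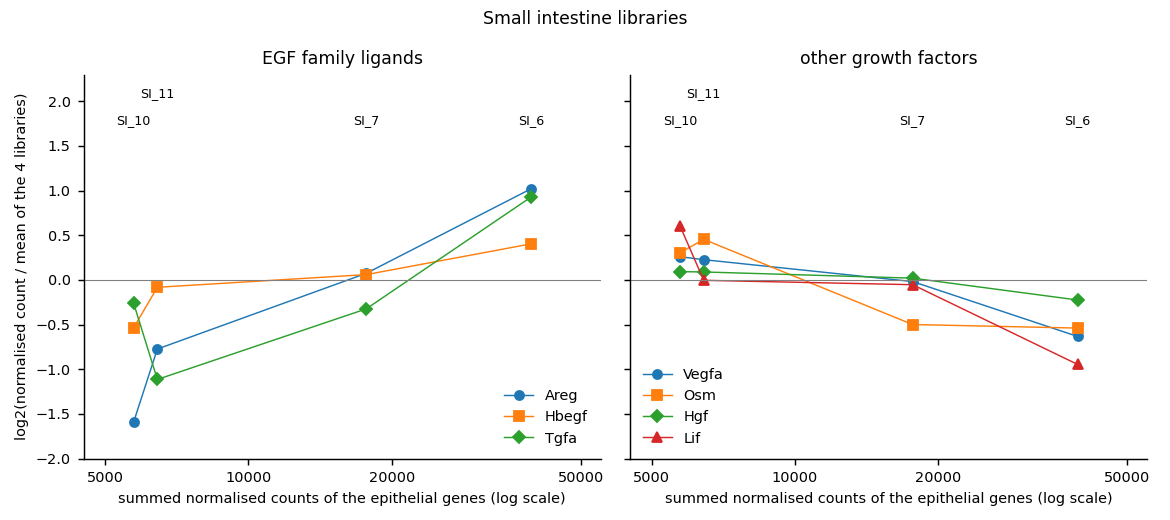
Normalised counts of 7 growth factor genes in the 4 small intestine libraries, as log2 of the ratio to their own mean, against the summed normalised counts of 12 epithelial genes (log axis). The EGF family ligands (left) are highest and the other growth factors (right) lowest in SI_6, the library with the highest epithelial sum (39321).

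Other groups of marker genes also moved between the tissues. Of 12 macrophage and dendritic cell genes, 10 were higher. Their sum was between 581 and 676 in the bone marrow and between 27355 and 34256 in the small intestine. Most of the small intestine sum came from Itgax and Adgre1 (means of 14221 and 13672 there), while C1qa was at 14.0 and 76.8. Of 10 endothelial genes, 8 were higher and 1 was lower, with sums from 485 to 588 and from 7491 to 9840. Most of the small intestine sum came from Pecam1 (mean of 8162 there), while Emcn was at 3.94 and 36.8 and Ramp2 had no read in the bone marrow. The T and innate lymphoid cell genes overlapped between tissues, with sums from 66.5 to 108 and from 79.4 to 112. The mast cell and basophil genes summed to between 2670 and 3676 in the bone marrow and between 581 and 1868 in the small intestine, led by Kit, and Mcpt4 had no read in the bone marrow. Plasma and B cell genes summed to between 1833 and 2308 and between 5491 and 27729. Which cells these transcripts came from, and the part of those cells in the growth factor values, was not tested.

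Genes that respond to the dissociation of tissue rose without exception. All 16 were higher, and their summed normalised counts were between 1229 and 1665 in the bone marrow and between 97892 and 130623 in the small intestine, with SI_6 at the lower end. Dusp1, Zfp36 and Fos, the most abundant, rose to means of 35350, 31044 and 13015, from 144, 521 and 96.2. Their part in the growth factor differences was not tested.

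For the 3 most abundant growth factor genes per kilobase in the small intestine, the genes with the most similar pattern were sought among 12871 named protein-coding genes, by the root mean square distance of centred deposited values over the 8 libraries. Vegfa was nearest to Paxbp1 (0.0791), Stat4 (0.105) and Cwc25 (0.114). Hgf was nearest to Stap1 (0.116), Csnk1e (0.118) and Usp32 (0.133). Osm had no gene as near, with Slc25a33 at 0.262, Dapk2 at 0.318 and Pirb at 0.323.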

How the data were processed

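RNA was amplified to cDNA and sequenced from a single end in 4 bone marrow and 4 small intestine libraries. The authors aligned reads to GRCm38 with Ensembl release 86 genes and deposited variance-stabilised values (DESeq2, R 4.0.3 per the labels), which are on a log2-like scale that understates the change of genes with few reads. Neither aligner nor strand setting is given in the sources used here. Column names gave each library's tissue but not its sample, so libraries carry the column names. All 38392 gene identifiers were found in GENCODE M21, from which coordinates and exon lengths were taken.

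Inverting the transformation gave whole reads, within 0.05, for 100% of genes in each library. Reads divided by the size factor are the normalised counts. At this depth, 22177 genes had a mean under 10 reads and are measured with low precision, and counting intervals (95%) and the floor of 3 reads cover counting error only. Genes were compared in limma 3.58.1 under R 4.3.3 on the values as deposited (4 against 4 libraries, no covariate, no filter, Benjamini-Hochberg adjustment over 38392 genes, 2-sided). Where the authors fitted a count model, limma was used because the deposited unit is log2, with voom, run on the recovered reads, as an alternative. The test was checked on simulated data. No pair of libraries of a tissue agreed within counting noise. Alternatives were other scalings, a mean-variance trend, a filter, pseudocounts of 1 and 5 and leaving out each library. Motifs were chosen after the data were seen.

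The 10 genes, the 8 related groups and the marker lists were chosen with earlier results of these data known. Genes named were the 10, in each related group the largest rise, the largest fall among called genes and the 3 with the highest mean per kilobase, in each marker list and the dissociation list the 3 most abundant, and the 3 nearest patterns of 3 growth factor genes. Lifr, Il6st, Osmr, Met, Egf, Egfr, Erbb3, Erbb4, Epx, Prg2, Il5ra, C1qa, Emcn, Ramp2 and Mcpt4 were added after their values were seen. Other steps used Python 3.11.15, matplotlib 3.10.9, scipy 1.17.1, pandas 2.3.3 and numpy 2.4.6.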

Additional observations from a re-analysis of the deposited data

Results flagged for a closer look

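The highest or lowest of the 4 libraries of a tissue was taken as apart from the rest where the distance to its neighbour, as a ratio to the range of all 4, was above Dixon's 95% critical value. Of 152 groups examined for the named genes, 11 met this. In 4 of them the other 3 libraries were tied, all without reads, so that any reads in the last library give a ratio of 1. Of the 147 groups without ties, 7 met it, and chance gives about 1 in 20, or 7.35.

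Among the growth factor genes, the single library with reads in the bone marrow was BM_5 for Ereg (ratio 1, 10 reads) and for Lif (ratio 1, 1 read), and BM_4 for Pdgfb (ratio 1, 4 reads). Ereg was also lowest in SI_11 of the small intestine (ratio 0.877, 1 read). Of the related genes, Spint1 had its only bone marrow read in BM_5 (ratio 1), Il6 was lowest in BM_4 of the bone marrow (0.907) and Mst1 lowest in SI_7 of the small intestine (0.856). Alox15, an eosinophil gene, was lowest in SI_6 (0.866), as were Cwc25 (0.902) and Usp32 (0.968), and Paxbp1 was highest in BM_4 of the bone marrow (0.888).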

How the results depend on the processing

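The 7 growth factor genes that were higher were called in every alternative, and none of the 10 was called lower. Their number was 8 with voom (with Ereg), without BM_5 (Ereg), without SI_11 (Pdgfb) and without BM_5 and SI_6 together (Ereg, 2.31, adjusted p = 0.0269, chosen after seeing the data), and leaving out 1 library gave 7 to 8. A filter at a mean of 10 reads gave no value for Ereg and Pdgfb. No paired analysis was possible because the tissues share no replicate numbers in the labels. Depth limits Ereg, Pdgfb, Areg and Lif, which had at most 94 reads each over the 8 libraries. The cause of the changes below was not tested.

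Centring on the median of all genes moved the median difference over all genes from 0.37 to -0.53, gave 4285 genes higher and 10216 lower, so that 29.5% rather than 63.2% of calls were higher, and 19 rather than 11 genes of the 8 related groups lower. Calls were 45.8% higher by quantile normalisation (median difference -0.03) and 53.8% with the filter. Leaving out 1 library gave 6701 to 9596 genes higher and 4281 to 5166 lower, and in the related groups 37 to 43 higher and 10 to 13 lower. Without division by exon length, the mean share of Areg in the EGF family of the small intestine was 4.73% and that of Tgfa 11.0%. No reversed difference was called. With centring on all genes and with quantile normalisation, in that order, Igf1 was at -0.64 and -0.30, Insr at -0.81 and -0.24, Igf1r at -0.77 and -0.21 and Lck, a T cell gene, at -0.35 and -0.27. Adam17 was at 0.000945 with voom and from -0.0477 to 0.0605 without 1 library. Spred2 was at 0.0477 by quantile normalisation and from -0.0876 to 0.0645 without 1 library. Ighm, a B cell gene, was from -0.13 to 0.034 without 1 library and at 0.0237 without BM_5 and SI_6. Of 76 named genes, 65 were called and 58 kept the call in every alternative. Those that lost it were Angpt1 (0.0589 with centring on all genes), Furin (0.999), Pdgfa (1.86 by quantile normalisation), Cd3e, Cpa3, Il7r and Kit.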
